A study of Mus musculus with 16 samples.

Results

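Gene expression in the tibialis anterior (TA) muscle of mice on a normal chow diet (NCD) was compared between 12 and 7 weeks of age, as Adult-NCD against Juvenile-NCD. The libraries were chosen by their age and diet labels and number 8 of the 16 in the series, with 4 mice in each group. All mice were male wild-type C57BL/6J (C57BL/6JGpt in the study's methods), and each library came from 1 mouse. Juvenile-NCD mice began the diet at 3 weeks of age and Adult-NCD mice at 8 weeks, and both groups ate it for 4 weeks. The study asked how a high-fat diet (HFD) begun at either age affects muscle, and its Juvenile-HFD and Adult-HFD mice, of the same strain and ages, enter here where the age difference is compared between diets. No harvest date is given, so the age of the mice cannot be told apart from their cohort or from the day and hour of harvest.

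The TA is a mostly fast-twitch muscle that lifts the foot. After weaning its fibres are already formed, and the muscle then gains length and girth while connective tissue, tendon, nerve contacts and metabolism mature around and within them. Fibrillar collagen is made mainly by fibroblasts, insulin-like growth factor and imprinted genes act on body growth, and immediate-early genes are transcribed within minutes of a stimulus such as contraction or stress.

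Polyadenylated RNA was sequenced, and the authors' counts per gene ranged from 13676793 to 18999950 in total over the 8 libraries. Values are given as CPM, a gene's counts relative to the total of its library after scaling between libraries. The 14 markers of skeletal muscle fibres were all measured, with a summed 154444, 153366, 157977 and 153195 CPM in Juvenile-NCD replicates 1 to 4 and 144915, 139309, 125585 and 143017 CPM in Adult-NCD replicates 1 to 4, and the fast myosin heavy chain Myh4 was the most abundant by CPM. No marker was at 0, so the RNA was that of muscle in every library, as labelled.

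Adult-NCD replicate 3 stood apart from the other libraries. Mitochondrially encoded genes held 12.5%, 10.6%, 4.79% and 10.1% of counts in Juvenile-NCD replicates 1 to 4, and 13.1%, 5.79%, 1.04% and 10.7% in Adult-NCD replicates 1 to 4. The share was thus lowest in Adult-NCD replicate 3, and the groups overlapped. Means were 9.50% ± 3.31 (SD, n = 4) in Juvenile-NCD and 7.66% ± 5.36 in Adult-NCD, a difference of -1.84 percentage points (2-sided exact permutation p = 0.657 over 70 splits, of which 0.0286 is the smallest p possible). Without Adult-NCD replicate 3 the difference was 0.37 percentage points, with an exact permutation p of 0.8. In a principal component analysis of log2 CPM the first axis took up 41.0% of the variance, and that library lay at 64.3 on it, against 1.22, 24.1 and 2.58 for Adult-NCD replicates 1, 2 and 4 and between -28.5 and -9.61 for the juvenile libraries. Its quality weight in limma was 0.225, where the other 7 libraries had 0.899 to 1.69. Chi-square per degree of freedom between libraries of 1 group ranged from 7.99 to 189, with the highest value between Adult-NCD replicates 1 and 3. Separate mice exceed counting error in any case, so these values only order the pairs of libraries. Since Adult-NCD replicate 3 stood apart, counts for most of the lists are also given without it.

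**Figure D1:**
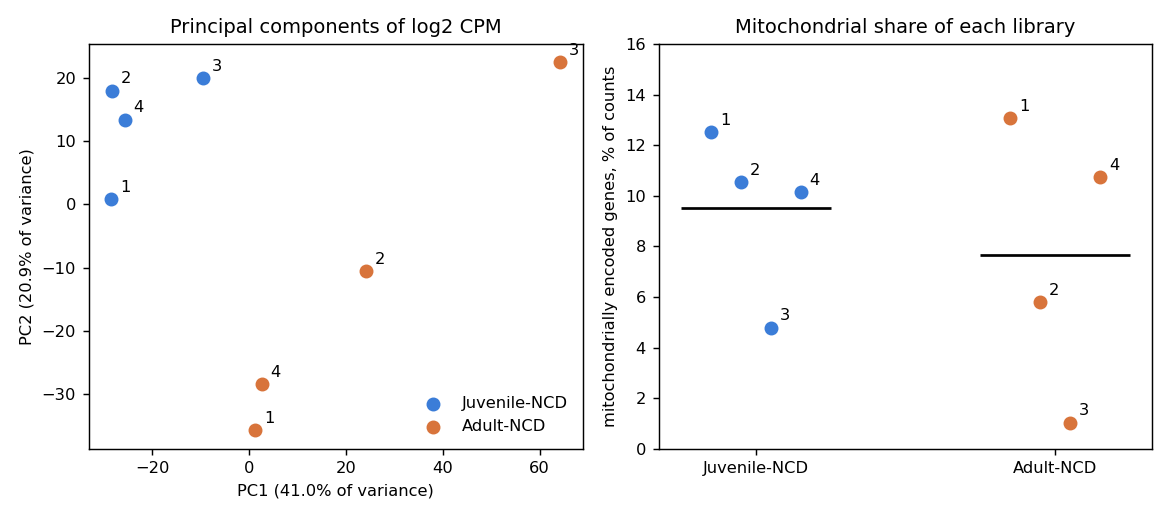
Left, the 8 libraries on the first 2 axes of a principal component analysis (41.0% and 20.9% of the variance), where Adult-NCD replicate 3 lies at 64.3 on the first. Right, the share of counts on mitochondrially encoded genes, with points numbered by replicate and lines at group means of 9.50% (Juvenile-NCD) and 7.66% (Adult-NCD, n = 4 each).

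Genes of connective tissue and of the early response to stimuli were among those lower in the adult muscle, as was Actc1, an actin of developing fibres, and genes of branched-chain amino acid breakdown and of foreign-compound metabolism were among those higher. Of 14243 genes tested, 263 were higher in Adult-NCD and 570 lower at an adjusted p under 0.05 (edgeR, 1.85% and 4% of genes tested). Genes called are those that pass this threshold, and a log2 fold change is that of Adult-NCD against Juvenile-NCD throughout. The 8 libraries showed no overlap between groups for 259 of the 263 and for 546 of the 570, where 15.9% of all genes tested had no overlap in either direction. The decreases were the larger changes: 243 of the lower genes and 49 of the higher genes passed an absolute log2 fold change of 1, and the medians were -0.91 and 0.68, against 0.01 over all genes tested.

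Without Adult-NCD replicate 3, 403 genes were higher and 747 lower, including 246 of the 263 and 553 of the 570. The counts fell when any other library was left out. Without Juvenile-NCD replicates 1 to 4 in turn, 126, 65, 141 and 85 genes were higher and 429, 232, 407 and 282 lower. Without Adult-NCD replicates 1, 2 and 4, the numbers were 161, 103 and 188 higher and 401, 265 and 465 lower. At the study's thresholds, an unadjusted p under 0.05 with an absolute log2 fold change over 0.5, 657 genes were higher (4.61%) and 1084 lower (7.61%), or 524 and 1051 without Adult-NCD replicate 3.

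**Figure D2:**
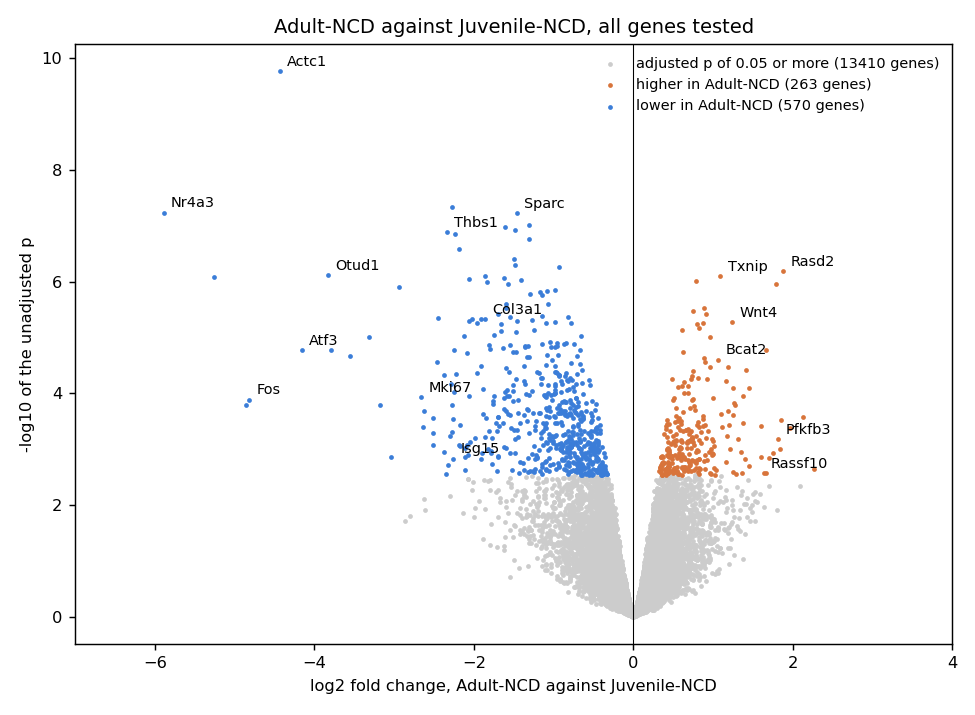
Each of the 14243 genes tested by its log2 fold change (horizontal) and the negative log10 of its unadjusted p in edgeR (vertical). The 263 genes called higher in Adult-NCD are orange, the 570 called lower are blue, and Actc1 has the smallest p.

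The extracellular matrix, the list with the most genes tested, also had the most called lower. Of 110 matrix genes tested, 48 fell and 1 rose, a smaller share lower than among immediate-early genes (16 of 26), tendon markers (6 of 11) and heat shock genes (9 of 18), with a median log2 fold change of -0.65 against 0.01 over all genes tested. Summed over the list, Juvenile-NCD replicates 1 to 4 held 11816, 16394, 15301 and 15397 CPM and Adult-NCD replicates 1 to 4 held 7575, 7089, 9088 and 8001 CPM. The groups did not overlap, and the lowest juvenile library was replicate 1. When Adult-NCD replicate 3 was left out, 60 members fell and 1 rose, with a median of -0.73. Only 19, 24 and 20 members were called lower without Juvenile-NCD replicate 2, Juvenile-NCD replicate 4 and Adult-NCD replicate 2.

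Sparc (chr11:55394500-55423183 on GRCm38), which encodes a collagen-binding protein of bone and basement membranes, had the smallest p of the list. It measured 905, 1189, 1085 and 1087 CPM in Juvenile-NCD replicates 1 to 4 and 346, 372, 417 and 415 CPM in Adult-NCD replicates 1 to 4. Every juvenile library was above every adult library, and the log2 fold change was -1.46 (SE 0.11, adjusted p = 0.000215, n = 4 per group). Serpinh1 (chr7:99345376-99353239), the chaperone that folds procollagen in the endoplasmic reticulum, fell from 206 ± 29.5 to 73.8 ± 7.49 CPM (SD, n = 4; log2 fold change -1.48, adjusted p = 0.000222). It was 1 of 11 genes called lower among the 28 tested that fold, hydroxylate or crosslink collagen. Thbs1 (chr2:118111876-118127133), thrombospondin 1, an adhesive glycoprotein that can activate latent TGF-beta, changed the most among the named members of the matrix list. It had 59.4 ± 15.5 CPM in juveniles and 11.7 ± 1.10 in adults (log2 fold change -2.34, adjusted p = 0.000222).

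Fibrillar and associated collagens had 8 of 11 members called lower and a median log2 fold change of -1.56. Col3a1 (chr1:45311538-45349706), the collagen of compliant connective tissue, had 952, 1462, 1623 and 1330.2 CPM in Juvenile-NCD replicates 1 to 4 and 282, 304, 538 and 355 CPM in Adult-NCD replicates 1 to 4. The groups lay apart, with Adult-NCD replicate 3 the highest adult library (log2 fold change -1.86, SE 0.22, adjusted p = 0.00144). Col1a1 (chr11:94936224-94953042), the main chain of type I collagen and the list's most abundant gene by CPM, had 821, 2027, 1702 and 1761 CPM in the juvenile and 256, 426, 846 and 322 CPM in the adult libraries. These groups overlapped, since Adult-NCD replicate 3 exceeded Juvenile-NCD replicate 1, and the log2 fold change was -1.77 (adjusted p = 0.0218), or -2.24 without Adult-NCD replicate 3 (adjusted p = 0.000742). Its call was lost without Juvenile-NCD replicates 2 or 4 or Adult-NCD replicates 2 or 4, with adjusted p up to 0.0750. Col6a2 (chr10:76595762-76623630), a chain of the microfibrillar collagen that surrounds muscle fibres, fell from 226 ± 21.95 to 85.2 ± 16.7 CPM (log2 fold change -1.41, adjusted p = 0.000593).

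Basement membrane genes had 9 of 16 members called lower, with a median of -0.49, and the matricellular glycoproteins 7 of 15, with a median of -0.81. The 1 matrix gene that rose was Mmp11, a secreted metalloproteinase, with 2.74 ± 0.477 CPM in juveniles and 5.47 ± 1.34 in adults (log2 fold change 0.99, adjusted p = 0.0303). Its call was lost in 6 of the 8 fits that leave out 1 library (each juvenile library, Adult-NCD replicate 2 and Adult-NCD replicate 4), with adjusted p up to 0.0999.

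Matrix genes are made by several cell types, so marker lists of those cells stand beside the result. Of the 11 tendon markers, 6 were called lower and 0 higher (edgeR), with a median log2 fold change of -1.31. The 6 were Kera, Thbs4, Tnmd, Cilp2, Fmod and Mkx. Thbs4 and Fmod are also among the matrix genes called lower, so the tendon count partly repeats the matrix count. The 11 markers summed to 472, 573, 451 and 632 CPM in Juvenile-NCD replicates 1 to 4 and 299, 210.5, 241 and 271 CPM in Adult-NCD replicates 1 to 4, without overlap. Thbs4 (chr13:92751590-92794818), a glycoprotein of tendon and muscle attachments, was the most abundant of them by CPM. It dropped from 213 ± 45.2 CPM in juveniles to 108 ± 14.3 in adults (log2 fold change -0.98, adjusted p = 0.00661, not called in a fit of all 16 libraries). Tnmd (chrX:133850980-133865577), tenomodulin, a membrane protein of tendon cells, had a log2 fold change of -1.58 (adjusted p = 0.00744), and Kera (chr10:97606879-97613692), keratocan, had -2.46 (adjusted p = 0.00388). The same 6 of 11 were the count without Adult-NCD replicate 3, and 3 were called without Juvenile-NCD replicate 2, Juvenile-NCD replicate 4 or Adult-NCD replicate 2.

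Fibro-adipogenic progenitors, the collagen-producing mesenchymal cells of muscle, had 2 of 14 markers called lower and 0 higher, with a median log2 fold change of -0.34. Their markers summed to 1433, 1689.7, 1744 and 1881 CPM in the juvenile and 1951, 1152, 1468 and 2035 CPM in the adult libraries, and the groups overlapped. The most abundant, Gsn, an actin-severing protein, had 955 ± 172 and 1129.7 ± 305 CPM and was not called (log2 fold change 0.24, adjusted p = 0.504). The called markers were the matrix genes Lum (log2 fold change -1.06, adjusted p = 0.0465) and Mfap5 (-1.32, adjusted p = 0.0467), each of which lost its call in at least 5 of the 8 fits that leave out 1 library: Lum without Juvenile-NCD replicates 2, 3 or 4 or Adult-NCD replicates 1 or 2 (adjusted p up to 0.147), and Mfap5 without any juvenile library or Adult-NCD replicates 2 or 4 (up to 0.125).

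Macrophage markers had 0 of 16 members called by edgeR, 1 by DESeq2 and 1 by limma, and 4 lower at the study's thresholds, which use an unadjusted p under 0.05. Their sums were 178, 202, 355 and 274 CPM in the juvenile and 256, 84.8, 99.99 and 225 CPM in the adult libraries, the median log2 fold change was -0.75, and Lyz2 was the most abundant gene. None of the markers of these 3 cell types was at 0. Whether a change in the number of these cells takes part in the matrix decrease was not tested, and in bulk tissue fewer cells of a type and less RNA per cell cannot be told apart.

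Of 12 structural genes of developing muscle, 4 fell. The gene with the smallest p of all 14243 was Actc1 (chr2:114047282-114053548), cardiac alpha-actin, the actin of fetal and regenerating skeletal muscle. It measured 2145, 1539, 1498 and 1294 CPM in Juvenile-NCD replicates 1 to 4 and 68.5, 66.6, 69.2 and 95.2 CPM in Adult-NCD replicates 1 to 4. The highest adult library, replicate 4, was thus far below the lowest juvenile library. Juvenile muscle held 21.6 times the adult mean, and the log2 fold change was -4.44 (SE 0.19, adjusted p = 2.44e-06).

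The promoter of Actc1 is shown because this gene had the smallest p. The sequence is the 250 bases before the RefSeq transcript start on GRCm38.p6 (chr2:114052876-114053125, minus strand), and capitals mark the match to the CArG box, the motif of serum response factor. The match begins 47 bases before the start.
Actc1: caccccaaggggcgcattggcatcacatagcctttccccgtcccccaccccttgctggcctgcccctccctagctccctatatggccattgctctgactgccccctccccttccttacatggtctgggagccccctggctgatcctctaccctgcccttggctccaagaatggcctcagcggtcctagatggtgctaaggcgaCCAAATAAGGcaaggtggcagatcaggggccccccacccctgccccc
Of 32851 RefSeq promoters searched on both strands in the same window, 1.47% hold a CArG box, and 1.22% of those of genes tested do. This motif was chosen after the values were seen, and a match is a description of letters, not a binding site.

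Xirp1 (chr9:120013755-120023598), an actin-binding protein of myotendinous junctions and of repairing fibres, had 588, 568, 314 and 414 CPM in Juvenile-NCD replicates 1 to 4 and 95.2, 90.99, 103 and 111 CPM in Adult-NCD replicates 1 to 4. All adult values were below all juvenile values (log2 fold change -2.24, adjusted p = 0.000222). Mybph (chr1:134193448-134201232), myosin-binding protein H, fell from 74.98 ± 24.1 to 15.6 ± 6.54 CPM (log2 fold change -2.25, adjusted p = 0.00277), although 49.9% of its exon bases overlap Adora1 and the strand setting of the counts is not stated. Vim (chr2:13573927-13582826), vimentin, an intermediate filament of immature fibres and of mesenchymal cells, fell from 324 ± 50.7 to 209 ± 16.01 CPM (log2 fold change -0.63, adjusted p = 0.0130). These 4 genes were the called members of that list, which had a median log2 fold change of -0.42 (5 called lower, median -0.66, without Adult-NCD replicate 3) and 0 called higher by edgeR, DESeq2 or limma.

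Adult fast-fibre genes had 0 of 18 members called by edgeR, 4 lower by DESeq2 and 5 lower by limma, and 2 lower at the study's thresholds. Their median log2 fold change was 0.01, as over all genes tested, but their summed CPM was lower in every adult library than in every juvenile one, with 175088, 175668, 180976 and 172801 CPM in Juvenile-NCD replicates 1 to 4 and 162153, 155506, 157699 and 162704 CPM in Adult-NCD replicates 1 to 4. Leaving out Adult-NCD replicate 3, 4 members were called lower, with a median of -0.11, and without Adult-NCD replicate 4, 1 was. The members with the smallest p were Myl1, the fast essential light chain (log2 fold change -0.52, adjusted p = 0.0534, or 0.0309 without Adult-NCD replicate 3), and Mylpf, the fast regulatory light chain (-0.45, adjusted p = 0.0773, or 0.0465 without Adult-NCD replicate 3).

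Per kilobase of exons, which allows genes to be compared, the myosin heavy chains kept 1 order in both groups. Myh4, of the fastest (IIB) fibres, had 5637 ± 373 CPM per kilobase in Juvenile-NCD and 4586 ± 157 in Adult-NCD (SD, n = 4), Myh1, of IIX fibres, 1979 ± 159 and 1914 ± 304, and Myh2, of IIA fibres, 184 ± 35.3 and 97.5 ± 49.3. The slow Myh7 was the lowest of these 4, with 0.408 ± 0.0666 and 0.482 ± 0.177 CPM per kilobase. Neighbours in this order differed by more than their spread in both groups. None of the 4 was called in the age comparison, although Myh2 passed without Adult-NCD replicate 3 (log2 fold change -1.23, adjusted p = 0.0141, against -0.92 and 0.115 with all 8 libraries). Between 9.68% and 15.8% of the 75-base windows of these transcripts are shared with another gene, and how such reads were counted is not stated.

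Slow-fibre genes had 1 of 15 members called lower, Myoz2 (chr3:123006206-123035015), calsarcin 1, a Z-disc protein that binds calcineurin (log2 fold change -0.79, adjusted p = 0.00918), with a list median of -0.17. Without Adult-NCD replicate 3 the count was also 1, with a median of -0.23. Since 4% of all genes tested were called lower, 1 call of 15 is close to the general share.

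**Figure D3:**
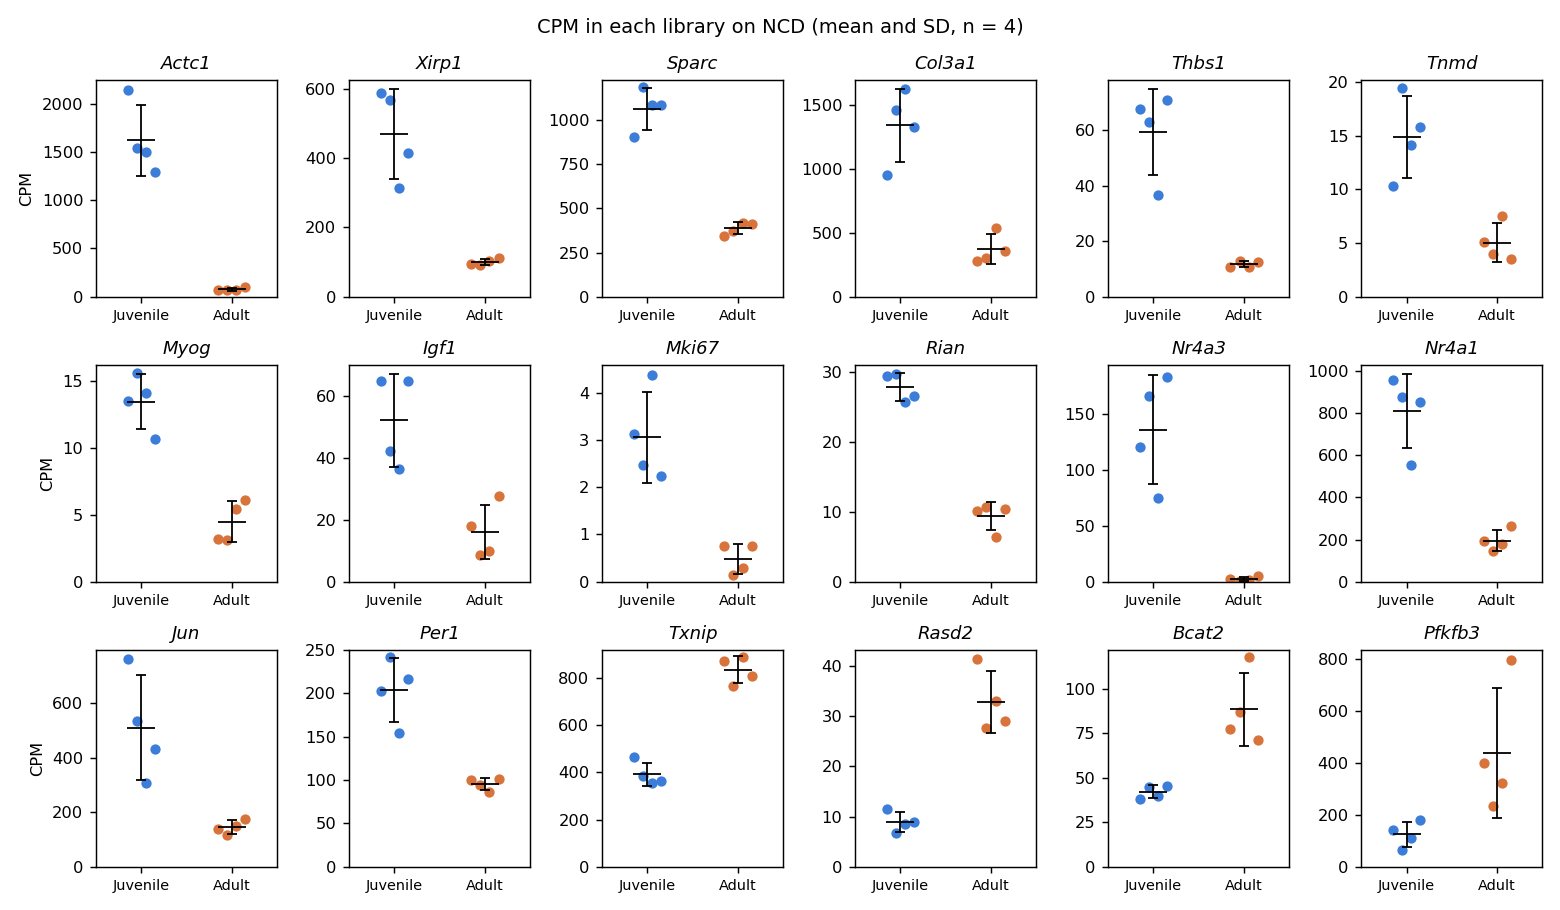
CPM of 18 genes in each library, with the group mean and SD (n = 4) as bars. Actc1 lies between 1294 and 2145 CPM in the juvenile and between 66.6 and 95.2 CPM in the adult libraries, and Txnip, Rasd2, Bcat2 and Pfkfb3 are higher in every adult library than in every juvenile library.

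Myogenic regulators were lower in part. Of 42 genes of myogenic regulation and satellite cells, 9 fell and 0 rose (median log2 fold change -0.19, against 10 and 1 without Adult-NCD replicate 3 and a median of -0.19). DESeq2 and limma also called 0 members higher. Without Adult-NCD replicate 2, 5 fell. Of the 9, 4 are Skil, Nr4a1, Btg2 and Fos, which the study names as potential upstream regulators. All but Skil of these are also on the immediate-early list described below. Transcription factors had 2 of 12 lower, genes of the satellite cell surface and of quiescence 3 of 19, and genes of fusion 0 of 7 by edgeR (1 at the study's thresholds). Myog (chr1:134289989-134292548), myogenin, the factor that starts terminal differentiation, had 13.5, 15.6, 14.1 and 10.7 CPM in Juvenile-NCD replicates 1 to 4 and 3.21, 3.13, 5.46 and 6.13 CPM in Adult-NCD replicates 1 to 4. The groups did not overlap (log2 fold change -1.60, SE 0.24, adjusted p = 0.00447). Myf6 (chr10:107492853-107494737), the related factor of mature fibres, fell from 111 ± 8.35 to 77.4 ± 9.24 CPM (log2 fold change -0.53, adjusted p = 0.0185), a call lost without Juvenile-NCD replicates 2 or 4 or Adult-NCD replicate 2 (adjusted p up to 0.0750). Myod1, the determination factor, had 66.98 ± 19.97 and 48.2 ± 11.8 CPM (adjusted p = 0.220), and Pax7, the marker of satellite cells, had 6.20 ± 0.947 and 7.14 ± 1.47 CPM (adjusted p = 0.556). Neither passed the test. Skil (chr3:31095058-31122577), a repressor of SMAD transcription factors, had 94.2 ± 14.5 CPM in juveniles and 30.9 ± 3.43 in adults (log2 fold change -1.61, adjusted p = 0.000222). Sdc4, a surface proteoglycan of satellite cells, fell with a log2 fold change of -0.85 (adjusted p = 0.0127, or 0.0503 without Adult-NCD replicate 2).

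A further list holds the genes with RT-qPCR measurements in the study. Of its 19 genes, 6 fell in these libraries, namely Skil, Nr4a1, Btg2, Myog, Fos and Myf6, and 0 rose by edgeR, DESeq2 or limma. The median log2 fold change was -0.18, and 7 fell without Adult-NCD replicate 3, with a median of -0.13. Skil, Nr4a1, Btg2 and Fos are the genes noted above as reported partly from these same Juvenile-NCD libraries.

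Genes of the nerve-muscle synapse had a negative log2 fold change for 15 of 18 tested, where the median over all genes tested was 0.01. The list summed to 711, 773, 749 and 707 CPM in the juvenile and 607, 642, 749 and 603 CPM in the adult libraries, with overlap. By the test, 3 fell and 1 rose (4 and 1 without Adult-NCD replicate 3), with a median log2 fold change of -0.33. Dok7 (chr5:35056766-35087839), the activator of the muscle-specific kinase MuSK, fell from 44.1 ± 6.37 to 28.4 ± 2.21 CPM (log2 fold change -0.64, adjusted p = 0.0137). Ache, acetylcholinesterase (log2 fold change -0.40, adjusted p = 0.0480), and Etv4, an ETS transcription factor (-0.85, adjusted p = 0.0405), also fell, and Rapsn, rapsyn, which clusters acetylcholine receptors, rose from 27.7 ± 2.05 to 37.04 ± 2.01 CPM (log2 fold change 0.42, adjusted p = 0.0323). All 4 kept their direction when 1 library was left out, with log2 fold changes from -0.70 to -0.55 for Dok7, -0.45 to -0.33 for Ache, -0.93 to -0.70 for Etv4 and 0.37 to 0.45 for Rapsn, but their adjusted p passed the threshold only in some of those fits or in none. Dok7 lost its call without Juvenile-NCD replicate 2 or Adult-NCD replicate 2 (adjusted p up to 0.0588), Ache and Rapsn without any library but Adult-NCD replicate 3 (up to 0.160 and 0.0825), and Etv4 without any of the 8 (up to 0.132). The 4 acetylcholine receptor subunits tested had 0 calls by edgeR, and 2 were lower at the study's thresholds.

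Part of the growth-related genes fell, with imprinted RNAs among them. Of 23 imprinted growth genes tested, 6 fell and 0 rose by edgeR (1 rose by DESeq2 and 1 by limma, and 1 at the study's thresholds), with a list median of -0.35 in log2 fold change, and without Adult-NCD replicate 3 the counts were 7 and 1 and the median -0.33. The long non-coding RNA Rian (chr12:109603940-109661716), a maternally expressed RNA of the imprinted Dlk1-Dio3 cluster, had 29.4, 29.8, 25.7 and 26.6 CPM in Juvenile-NCD replicates 1 to 4 and 10.1, 10.7, 6.39 and 10.4 CPM in Adult-NCD replicates 1 to 4. The groups lay far apart, and Adult-NCD replicate 3 was the lowest library (log2 fold change -1.57, SE 0.16, adjusted p = 0.000608). Meg3 (chr12:109541001-109571726), from the same cluster, fell from 36.05 ± 4.13 to 14.2 ± 4.23 CPM (log2 fold change -1.33, adjusted p = 0.00325). H19 (chr7:142575529-142578143), the maternally expressed RNA beside Igf2, had 379, 479, 466 and 349 CPM in the juvenile and 226, 222, 119 and 218 CPM in the adult libraries. It was lower in all adult libraries, with replicate 3 again the lowest (log2 fold change -1.09, adjusted p = 0.0111, or -0.91 and 0.000765 without that library).

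Among the imprinted genes listed as paternally expressed or of placental growth, Zdbf2 (chr1:63273265-63314576) fell from 6.996 ± 0.714 to 2.21 ± 0.535 CPM (log2 fold change -1.65, adjusted p = 0.00180). Plagl1, a zinc finger factor of the imprinted gene network, fell with a log2 fold change of -1.15 (adjusted p = 0.0193), and Ndn, necdin, with -0.49 (adjusted p = 0.0303). Those calls were lost without Juvenile-NCD replicates 2 or 3 or Adult-NCD replicate 1 for Plagl1 (adjusted p up to 0.0747), and without any juvenile library or Adult-NCD replicates 1 or 2 for Ndn (up to 0.0852).

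In the growth hormone and IGF axis, 4 of 34 genes fell and 1 rose, with a median log2 fold change of -0.31. Igf1 (chr10:87858265-87937042), the growth factor itself, had 65.04, 42.4, 36.4 and 64.96 CPM in Juvenile-NCD replicates 1 to 4 and 18.04, 8.497, 10.01 and 27.6 CPM in Adult-NCD replicates 1 to 4. The groups did not overlap but varied widely within themselves (log2 fold change -1.71, SE 0.35, adjusted p = 0.0183), and the call was lost without Juvenile-NCD replicates 1 or 4 or Adult-NCD replicate 2 (adjusted p up to 0.0631). The insulin receptor substrates Irs1 (chr1:82233101-82291416) and Irs2 (chr8:10984681-11008458), adaptors of the insulin and IGF receptors, had log2 fold changes of -1.54 (adjusted p = 0.00260) and -2.09 (adjusted p = 0.00297). For Irs1, 30.9% of the exon bases overlap Gm9747.

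Foxo1, a transcription factor that insulin signalling keeps out of the nucleus, fell from 56.6 ± 14.6 to 33.4 ± 2.05 CPM (log2 fold change -0.76, adjusted p = 0.0201, or 0.0715 without Adult-NCD replicate 2). Stat5b (chr11:100780731-100850724), which carries the growth hormone signal to the nucleus, rose from 298 ± 9.63 to 419 ± 8.83 CPM (log2 fold change 0.49, adjusted p = 0.00581). Without Adult-NCD replicate 3, 8 genes of the axis fell and 1 rose (median -0.29), and without Adult-NCD replicate 2, 2 fell.

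Of 44 genes of TGF-beta, myostatin and BMP signalling, 6 fell and 1 rose, with a median log2 fold change of -0.10. Fstl1 (chr16:37776873-37836514), a secreted follistatin-like glycoprotein, fell from 141 ± 8.51 to 63.9 ± 10.6 CPM (log2 fold change -1.14, adjusted p = 0.000765). The ligand Tgfb1 fell with a log2 fold change of -0.83 (adjusted p = 0.0265) and its transducer Smad3 (chr9:63646767-63757994) with -0.69 (adjusted p = 0.0104). Wfikkn2, a secreted inhibitor of myostatin, was the member that rose (log2 fold change 0.81, adjusted p = 0.0292). Tgfb1 lost its call without Juvenile-NCD replicates 2, 3 or 4 or Adult-NCD replicate 2 (adjusted p up to 0.0871), and Wfikkn2 without any juvenile library or Adult-NCD replicate 2 (up to 0.0890). The fit without Adult-NCD replicate 3 had 6 members lower and 2 higher, with a median of -0.12.

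Of 96 cell cycle genes on the list, 61 passed the filter on low counts, and of these 8 fell and 1 rose (9 and 1 without Adult-NCD replicate 3). The median log2 fold change was -0.37 over the 61, and -0.58 over the 25 tested genes of mitosis. Passing the filter needed counts in 1 group, so the direction of the genes near that limit is partly set by it. DESeq2 called 15 lower, limma 12, a fit of all 16 libraries 12, a fit without the filter 12, and a fit of genes with at least 10 counts in every library 3. Fewer fell without Juvenile-NCD replicates 1, 2 or 4 or Adult-NCD replicate 2 (5, 4, 4 and 5).

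Mki67 (chr7:135689784-135716361), which encodes the Ki-67 protein of dividing cells, had 3.13, 2.48, 4.38 and 2.24 CPM in Juvenile-NCD replicates 1 to 4 and 0.759, 0.149, 0.284 and 0.749 CPM in Adult-NCD replicates 1 to 4. No adult library reached the lowest juvenile one (log2 fold change -2.66, SE 0.45, adjusted p = 0.00860). Top2a (chr11:98992943-99024189), the topoisomerase that untangles chromosomes, fell with a log2 fold change of -2.04 (adjusted p = 0.0238), and Kif11 (chr19:37376403-37421859), the kinesin of spindle poles, with -1.98 (adjusted p = 0.0218). When 1 library was left out, log2 fold changes ranged from -2.51 to -1.76 for Top2a and from -2.33 to -1.81 for Kif11. The calls were lost without any juvenile library or Adult-NCD replicate 2 for Top2a (adjusted p up to 0.0798) and without Juvenile-NCD replicates 1, 2 or 4 or Adult-NCD replicates 1 or 2 for Kif11 (up to 0.0753).

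Ccnd1 (chr7:144929931-144939925), cyclin D1 of the G1 phase, fell from 16.5 ± 2.06 to 7.26 ± 1.63 CPM (log2 fold change -1.18, adjusted p = 0.00508), with 23.4% of its exon bases overlapping LTO1. The S-phase activator E2f1 (chr2:154559407-154569892) had a log2 fold change of -1.62 (adjusted p = 0.0117), and Cdkn1a (chr17:29090976-29100727), the cyclin-dependent kinase inhibitor p21, had -1.47 (adjusted p = 0.00291). Of 8 inhibitors tested, Cdkn1a fell and 1 rose, with a median of 0.15. The gene that rose was Rbl2, the pocket protein of resting cells (log2 fold change 0.41, adjusted p = 0.0464), a call lost without any juvenile library or Adult-NCD replicates 2 or 4 (adjusted p up to 0.151).

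Promoters of the mitotic genes Mki67, Top2a and Kif11 are printed because these were the called genes of mitosis, 3 of 25 tested, beside 4 of 28 for the G1/S transition and DNA replication. RefSeq gave 10 promoters for 7 of the 8 called genes. Each sequence below is the 250 bases before the transcript start on GRCm38.p6, at chr7:135716380-135716629 (minus strand), chr11:99024190-99024439 (minus strand) and chr19:37376132-37376381 (plus strand). Capitals mark the cell cycle homology region (CHR, TTTGAA or TTCGAA) and the CCAAT box, on either strand.
Mki67: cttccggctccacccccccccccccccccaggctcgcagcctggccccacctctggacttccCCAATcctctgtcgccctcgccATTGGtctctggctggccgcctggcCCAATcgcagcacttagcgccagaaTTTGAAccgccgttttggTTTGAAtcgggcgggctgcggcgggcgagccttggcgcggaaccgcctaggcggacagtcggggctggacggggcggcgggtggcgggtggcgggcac
Top2a: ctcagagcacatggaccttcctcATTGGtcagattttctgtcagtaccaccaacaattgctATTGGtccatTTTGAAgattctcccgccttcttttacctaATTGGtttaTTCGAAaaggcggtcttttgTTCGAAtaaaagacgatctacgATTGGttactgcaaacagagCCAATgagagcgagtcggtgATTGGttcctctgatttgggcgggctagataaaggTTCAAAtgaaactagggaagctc
Kif11: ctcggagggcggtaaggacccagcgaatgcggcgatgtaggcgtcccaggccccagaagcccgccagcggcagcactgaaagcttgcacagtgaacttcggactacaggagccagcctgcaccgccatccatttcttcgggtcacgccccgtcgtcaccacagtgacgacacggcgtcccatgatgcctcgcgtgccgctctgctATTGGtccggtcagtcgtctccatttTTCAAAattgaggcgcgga
CHR letters stood in the promoters of these 3 genes, that is in 3 of the 10 promoters, and in 17.1% of all 32851 RefSeq promoters. CCAAT stood in 6 of the 10 and in 33.8% of all. The E2F letters TTTGGCGC or TTTCGCGC stood in 1 of the 10 and in 0.654% of all.

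Immediate-early genes had the lowest median log2 fold change of the lists. Of 26 tested, 16 fell and 0 rose by edgeR, DESeq2 or limma, with a median log2 fold change of -1.66. The fit without Adult-NCD replicate 3 had 18 lower, with a median of -1.78. The list summed to 5154, 4132, 2167 and 3098 CPM in Juvenile-NCD replicates 1 to 4 and to 1019, 978, 1399 and 1335 CPM in Adult-NCD replicates 1 to 4. Every juvenile library was above every adult one, and the juvenile libraries differed more among themselves, with replicate 1 the highest and replicate 3 the lowest.

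Nr4a3 (chr4:48045153-48086447), an orphan nuclear receptor induced by exercise, had 119.8, 166, 74.7 and 182 CPM in Juvenile-NCD replicates 1 to 4 and 2.04, 1.04, 1.42 and 4.84 CPM in Adult-NCD replicates 1 to 4. Its log2 fold change of -5.89 (SE 0.45, adjusted p = 0.000215) was the largest decrease among the genes named here. Nr4a1 (chr15:101254269-101274795), of the same receptor family, had 958, 876, 554 and 852 CPM in the juvenile and 192, 146, 177 and 264 CPM in the adult libraries. Again no libraries overlapped (log2 fold change -2.06, adjusted p = 0.000593). Fos (chr12:85473890-85477273), a subunit of the transcription factor AP-1, had 494, 245, 21.95 and 87.2 CPM in the juvenile and 6.25, 4.47, 5.75 and 13.9 CPM in the adult libraries. Juvenile-NCD replicate 3 was the closest to the adults (log2 fold change -4.82, SE 0.83, adjusted p = 0.00915).

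Other called members were Fosb (chr7:19302696-19310051), a further AP-1 subunit (log2 fold change -4.86, adjusted p = 0.0104, not called by limma), Atf3 (chr1:191170296-191218039), a stress-induced factor (-4.16, adjusted p = 0.00277), and Btg2 (chr1:134075170-134079120), an antiproliferative gene (-3.32, adjusted p = 0.00209). Fosb ranged from -5.59 to -3.73 and Fos from -5.27 to -3.97 in log2 fold change when 1 library was left out. Myc (chr15:61985391-61990374), a growth-promoting factor, fell from 13.6 ± 0.5003 to 4.44 ± 1.11 CPM (log2 fold change -1.60, adjusted p = 0.00108). Jun (chr4:95049034-95052222), the partner of Fos, had 762, 535, 309 and 431 CPM in Juvenile-NCD replicates 1 to 4 and 138, 117, 150.02 and 177 CPM in Adult-NCD replicates 1 to 4. Juvenile-NCD replicate 3 was the lowest juvenile library and still above all adult ones (log2 fold change -1.81, SE 0.24, adjusted p = 0.00263).

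The promoters of Nr4a1, Nr4a3 and Fos are shown because these genes were among the 16 of 26 on the list that fell. They are the 250 bases before the RefSeq transcript start on GRCm38.p6, at chr15:101266596-101266845, chr4:48045055-48045304 and chr12:85473640-85473889 (plus strands), with TGACG, the core letters bound by CREB and AP-1 related factors, in capitals on either strand (CGTCA is its reverse complement). This motif was chosen after the values were seen.
Nr4a1: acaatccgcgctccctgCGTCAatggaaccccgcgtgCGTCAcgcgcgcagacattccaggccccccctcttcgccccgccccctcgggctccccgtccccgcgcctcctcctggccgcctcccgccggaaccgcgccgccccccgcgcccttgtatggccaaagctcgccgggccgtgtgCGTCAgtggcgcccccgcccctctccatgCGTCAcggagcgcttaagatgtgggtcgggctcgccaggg
Nr4a3: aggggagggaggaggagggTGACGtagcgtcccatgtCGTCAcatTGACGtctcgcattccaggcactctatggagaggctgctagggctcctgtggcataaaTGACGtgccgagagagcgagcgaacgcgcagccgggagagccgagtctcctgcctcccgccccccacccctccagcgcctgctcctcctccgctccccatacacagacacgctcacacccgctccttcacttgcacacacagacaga
Fos: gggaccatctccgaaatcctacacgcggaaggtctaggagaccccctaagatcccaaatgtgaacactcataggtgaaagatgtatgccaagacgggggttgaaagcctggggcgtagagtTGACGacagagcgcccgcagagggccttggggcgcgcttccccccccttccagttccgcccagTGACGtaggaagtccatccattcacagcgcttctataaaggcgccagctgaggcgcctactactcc
RefSeq gave 16 promoters for 14 of the 16 called members, and 11 of the 16 promoters, of 10 genes, held TGACG. The letters stood in 17.8% of all 32851 promoters and in 25.7% of the promoters of genes tested. The other motifs searched in the 16 promoters were less frequent. A CArG box stood in 1 (1.47% of all promoters), CCAAT in 4 (33.8%), the CHR letters in 2 (17.1%) and the E2F letters in 1 (0.654%).

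Heat shock chaperones also fell, with 9 of 18 members called lower and 0 higher by edgeR, DESeq2 or limma (median log2 fold change -0.43, or 10 lower and -0.49 without Adult-NCD replicate 3). Without Juvenile-NCD replicate 2 or Adult-NCD replicate 2, 5 were called. Dnaja1 (chr4:40722150-40737149), a co-chaperone of HSP70, fell from 79.8 ± 6.99 to 40.3 ± 3.74 CPM (log2 fold change -0.98, adjusted p = 0.000714). Hspa8 (chr9:40800984-40810087), the constitutive HSP70, fell from 935 ± 94.5 to 516 ± 82.9 CPM (log2 fold change -0.86, adjusted p = 0.00538). The inducible Hspa1a (chr17:34969190-34972156) had a log2 fold change of -2.62 (adjusted p = 0.0120) and Hsp90aa1 (chr12:110690605-110702728), the inducible HSP90, -0.96 (adjusted p = 0.00257). Counts of chaperones can be shared with close copies: 54.2% of the 75-base windows of Hspa1a also occur in Hspa1b, and 42.8% of those of Hsp90aa1, 32.8% of those of Hspa8 and 10.4% of those of Dnaja1 occur in other genes.

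Glucocorticoid-responsive and atrophy genes moved both ways, with 6 of 23 lower and 2 higher (8 and 2 without Adult-NCD replicate 3) and a median log2 fold change of -0.19. Tsc22d3 (chrX:140539528-140600659), the glucocorticoid-induced leucine zipper, fell from 625 ± 67.6 to 298 ± 39.02 CPM (log2 fold change -1.07, adjusted p = 0.00108). Metallothionein 1, Mt1 (chr8:94179082-94180327), had a log2 fold change of -2.02 (adjusted p = 0.00144), the zinc finger gene Zbtb16 (chr9:48654297-48836222) -1.04 (adjusted p = 0.00819), and Ddit4 (chr10:59949669-59951834), an inhibitor of mTORC1, -1.76 (adjusted p = 0.00941). The higher genes were the ubiquitin ligase subunits Fbxo31 (log2 fold change 0.64, adjusted p = 0.0428) and Fbxo32, atrogin-1 (0.53, adjusted p = 0.0467). Their calls were lost without any juvenile library or Adult-NCD replicate 2 for Fbxo31 (adjusted p up to 0.122) and without Juvenile-NCD replicates 1, 2 or 3 or Adult-NCD replicates 1, 2 or 4 for Fbxo32 (up to 0.109).

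Clock genes had 3 of 18 members lower and 1 higher (3 and 3 without Adult-NCD replicate 3, 3 and 2 without Adult-NCD replicate 4), with a median log2 fold change of 0.26. Nfil3 (chr13:52967209-52981073), a repressor that opposes Dbp at D-box sites, had 72.9 ± 6.93 CPM in juveniles and 15.97 ± 4.77 in adults (log2 fold change -2.19, adjusted p = 0.000336). Dbp, the activator at those sites, rose from 115 ± 8.01 to 194 ± 53.6 CPM (log2 fold change 0.76, adjusted p = 0.0254), a call lost without any juvenile library or Adult-NCD replicate 2 (adjusted p up to 0.0873), and 18.01% of its exon bases overlap Sphk2. Per1 (chr11:69095217-69109960), a core repressor, had 202, 242, 155 and 216 CPM in Juvenile-NCD replicates 1 to 4 and 101, 94.5, 86.4 and 102 CPM in Adult-NCD replicates 1 to 4, again without overlap (log2 fold change -1.09, SE 0.13, adjusted p = 0.00145). Per2 fell with a log2 fold change of -0.69 (adjusted p = 0.0164, up to 0.0626 without Juvenile-NCD replicates 2 or 4). Clock genes change with the hour of harvest, which the labels do not give.

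The immediate-early sum, scaled over all 16 libraries, was 3540 ± 1257 CPM in Juvenile-NCD, 1151 ± 201 in Adult-NCD, 1358 ± 277 in Juvenile-HFD and 935 ± 86.0 in Adult-HFD (SD, n = 4 each). The juvenile NCD libraries held the highest sums, from 2098 to 5014 CPM, and the other 3 groups lay between 862 and 1735. On HFD, 8 of 26 immediate-early genes were lower in adults, with a median log2 fold change of -0.65. Of all 14043 genes tested on HFD, 10.4% were lower in adults.

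The interaction of age and diet, fitted on 16 libraries and 14812 genes, tests this difference gene by gene. It called 2 genes (0.0135%), Per1 and Jun, and 1669 had an unadjusted p under 0.05. For Jun the group means on the 16-library scale were 496 ± 187 CPM in Juvenile-NCD, 142 ± 24.0 in Adult-NCD, 176 ± 14.3 in Juvenile-HFD and 176 ± 30.6 in Adult-HFD. Juvenile-NCD was thus the group that differed from the other 3 (interaction log2 -1.80, SE 0.29, adjusted p = 0.0451). For Per1 the means were 198 ± 36.3, 93.4 ± 7.42, 124 ± 15.996 and 128 ± 5.01 CPM in the same order (interaction log2 -1.14, SE 0.17, adjusted p = 0.0440). The next genes by p were E330009J07Rik, Otud1, a deubiquitinase, Nos1, the neuronal nitric oxide synthase, and Irs2, each with an adjusted p of 0.109. Further genes, Myf6 and Slc25a25 among them, shared that adjusted p.

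Those interaction calls were few and depended on the libraries. DESeq2 called 93 genes, a fit without a filter on low counts 281, and a fit with the replicate number as a block 0. The count was 0 without Juvenile-NCD replicates 1, 2 or 4, Juvenile-HFD replicates 2, 3 or 4, Adult-NCD replicates 1 or 2, or Adult-HFD replicates 1, 3 or 4. It was 11 when Juvenile-NCD replicate 3 was left out and 10 for Juvenile-HFD replicate 1. Removing Adult-NCD replicate 3 gave 2 genes, Per1 and Ier5, an immediate-early gene, so that Jun lost its call. Removing Adult-NCD replicate 4 gave 3, Per1, Jun and Slc25a25, a mitochondrial carrier, and Adult-HFD replicate 2 gave 83. For the immediate-early, heat shock and matrix lists, a difference between diets was not tested as a whole, and their median interaction values were -1.07, -0.48 and 0.78 (log2, NCD minus HFD).

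**Figure D4:**
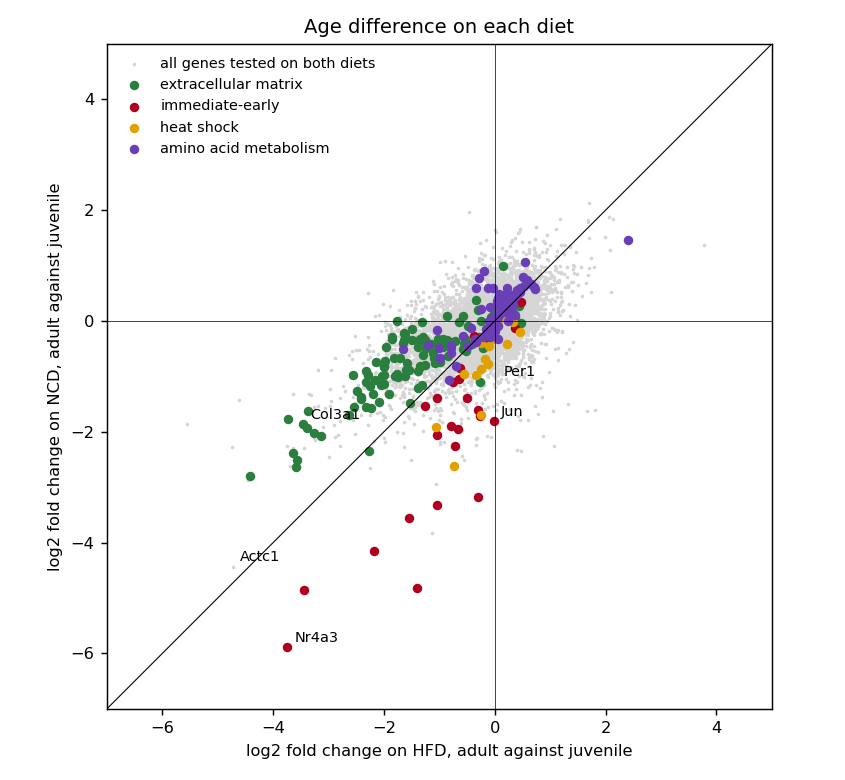
Log2 fold change of each gene between ages on NCD (vertical) against that on HFD (horizontal), with genes of 4 lists coloured and the diagonal marking equal change. Jun lies at -1.81 on NCD and -0.01 on HFD, and Col3a1 at -1.86 on NCD and -3.46 on HFD.

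Genes higher in the adult muscle were spread over smaller changes. The gene with the smallest p among them was Rasd2 (chr8:75213944-75224113), a Ras-like GTPase, with 11.4, 6.71, 8.48 and 9.01 CPM in Juvenile-NCD replicates 1 to 4 and 41.4, 27.6, 32.9 and 29.1 CPM in Adult-NCD replicates 1 to 4. Every adult library exceeded every juvenile one (log2 fold change 1.88, SE 0.18, adjusted p = 0.000593). Txnip (chr3:96557957-96561883), thioredoxin-interacting protein, which restrains glucose uptake, had 463, 384, 353 and 363 CPM in the juvenile and 871, 767, 889 and 808 CPM in the adult libraries. It too was higher in all 4 adults (log2 fold change 1.09, SE 0.11, adjusted p = 0.000593), with 19.4% of its exon bases overlapping Gm15441. Pdp1 (chr4:11958184-11966452), the phosphatase that switches on pyruvate dehydrogenase, rose from 98.97 ± 4.74 to 171 ± 4.69 CPM (log2 fold change 0.79, adjusted p = 0.000593).

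Further genes in the order of p were Hook1 (chr4:95967240-96025413), a microtubule-binding adaptor (log2 fold change 0.88, adjusted p = 0.00118), Fdft1 (chr14:63145150-63179578), squalene synthase of the sterol pathway (0.75, adjusted p = 0.00128), and Slc8a1 (chr17:81373105-81738377), a sodium-calcium exchanger (0.91, adjusted p = 0.00138). Wnt4 (chr4:137277489-137299726), a secreted Wnt ligand made by muscle fibres, rose from 12.3 ± 2.42 to 29.2 ± 2.88 CPM (log2 fold change 1.24, adjusted p = 0.00144), and Cbx7 (chr15:79915807-79971119), a Polycomb subunit, had a log2 fold change of 0.83 (adjusted p = 0.00165). For Fdft1, 18.3% of the exon bases overlap Ctsb. In the lower direction, Noct (chr3:51224447-51251644), a circadian phosphatase, fell from 89.7 ± 6.53 to 36.3 ± 3.80 CPM (log2 fold change -1.30, adjusted p = 0.000222), and Ip6k3 (chr17:27143965-27167795), an inositol phosphate kinase of muscle, from 153 ± 18.99 to 61.7 ± 5.22 CPM (-1.31, adjusted p = 0.000244). For Noct, 26.8% of the 75-base windows also occur in other genes.

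The largest increases among genes above 1 CPM in every adult library were those of Rasd2, Pfkfb3, Rassf10, Cngb1 and Fam228b. Pfkfb3 (chr2:11471433-11554077), which makes the activator of phosphofructokinase, had 142, 65.9, 109.6 and 182 CPM in Juvenile-NCD replicates 1 to 4 and 399.7, 233, 325 and 799 CPM in Adult-NCD replicates 1 to 4. Adult-NCD replicate 4 was far above the other adults (log2 fold change 1.81, SE 0.38, adjusted p = 0.0224, lost without Juvenile-NCD replicates 1, 2 or 3, up to 0.0681). The other 3 were near the detection limit, with log2 fold changes of 1.64 for Rassf10 (adjusted p = 0.0483), 1.61 for Cngb1 (0.0165) and 1.61 for Fam228b (0.0332). When 1 library was left out, log2 fold changes ranged from 1.21 to 1.89 for Rassf10, from 1.43 to 1.74 for Cngb1 and from 1.29 to 1.90 for Fam228b. Rassf10 lost its call without any library but Adult-NCD replicate 1 (adjusted p up to 0.141), Cngb1 without Juvenile-NCD replicates 2 or 4 (up to 0.0664), and Fam228b without Juvenile-NCD replicates 1 or 3 or Adult-NCD replicates 1 or 2 (up to 0.0860).

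Genes that break down branched-chain amino acids rose in part. Of 21 tested, 7 rose and 0 fell by edgeR, with a list median of 0.44 in log2 fold change, and without Adult-NCD replicate 3, 7 rose, with a median of 0.26. Bcat2 (chr7:45570153-45589711), the mitochondrial aminotransferase that begins the breakdown in muscle, had 38.4, 45.2, 39.9 and 45.7 CPM in Juvenile-NCD replicates 1 to 4 and 77.5, 87.3, 118 and 71.5 CPM in Adult-NCD replicates 1 to 4. The groups did not overlap, and Adult-NCD replicate 3 was the highest (log2 fold change 1.07, SE 0.15, adjusted p = 0.00355, or 0.90 and 0.000328 without that library). A pair of subunits of the branched-chain ketoacid dehydrogenase, Bckdhb (chr9:83925145-84124240) and Dbt (chr3:116513070-116549981), had log2 fold changes of 0.74 (adjusted p = 0.00502) and 0.53 (adjusted p = 0.0231). Later steps rose as well, with Ivd (chr2:118861954-118882909), of leucine breakdown, at 0.56 (adjusted p = 0.0144) and Aldh6a1 (chr12:84430717-84451004), of valine breakdown, at 0.63 (adjusted p = 0.00291). Of the exon bases, 15.9% of Bcat2 and 18.6% of Aldh6a1 overlap another gene. Dbt lost its call without Juvenile-NCD replicates 2, 3 or 4 or Adult-NCD replicate 2 (adjusted p up to 0.0789), and Ivd without Adult-NCD replicate 2 (0.0521).

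Over all amino acid metabolism, 12 of 72 genes rose and 4 fell, with a list median of 0.20 in log2 fold change (13 and 3, median 0.13, without Adult-NCD replicate 3). Of all genes tested, 1.85% rose and 4% fell, so the 4 that fell are close to the general share. Leaving out Juvenile-NCD replicates 1 to 4 in turn gave 7, 4, 5 and 4 higher genes, and leaving out Adult-NCD replicate 2 gave 5. The 4 that fell were Glul, glutamine synthetase (log2 fold change -0.58, adjusted p = 0.0248), Sat1, of polyamine breakdown (-0.82, adjusted p = 0.0378), Aldh18a1, of proline synthesis (-0.67, adjusted p = 0.0474), and Azin1, antizyme inhibitor 1 (-0.38, adjusted p = 0.0486). Each of the 4 lost its call in at least 6 of the 8 fits that leave out 1 library, with adjusted p up to 0.140 for Azin1, 0.137 for Aldh18a1, 0.110 for Sat1 and 0.0876 for Glul. The calls that held were those of Glul without Juvenile-NCD replicate 1 or Adult-NCD replicate 3, of Sat1 without Juvenile-NCD replicate 4 or Adult-NCD replicate 3, of Aldh18a1 without Adult-NCD replicate 1, and of Azin1 without Adult-NCD replicates 3 or 4.

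Foreign-compound metabolism had 9 of 65 genes higher and 1 lower, with a list median of 0.17 in log2 fold change, and 15 higher and 1 lower without Adult-NCD replicate 3 (median 0.18). Its summed CPM was 1771, 1797, 1748 and 1841 in Juvenile-NCD replicates 1 to 4 and 2195, 2138, 2116 and 2145 in Adult-NCD replicates 1 to 4, so every adult library was above every juvenile one. Cyp2d22 (chr15:82370527-82380260), a cytochrome P450, rose from 21.7 ± 1.65 to 39.99 ± 3.76 CPM (log2 fold change 0.88, adjusted p = 0.00144), and Aldh1a1 (chr19:20492715-20643465), which oxidises retinal to retinoic acid, from 102 ± 6.94 to 177 ± 16.8 CPM (0.79, adjusted p = 0.00146).

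Ahr (chr12:35497974-35535038), the aryl hydrocarbon receptor, had a log2 fold change of 1.003 (adjusted p = 0.00860), and its classical target Cyp1a1 (chr9:57687928-57703824) had 1.18 (adjusted p = 0.0210, or 0.0760 without Juvenile-NCD replicate 4). The glutathione transferase Gstt2 (chr10:75831114-75837424) had a log2 fold change of 1.16 (adjusted p = 0.00596) and the methyltransferase Inmt (chr6:55170626-55175043) 1.45 (adjusted p = 0.00705). Gstt2 was the 1 glutathione transferase called of 17 tested (5 were higher without Adult-NCD replicate 3 and 6 at the study's thresholds), and Inmt was 1 of 3 genes called higher among 26 tested of other enzymes. Aldh1a7, a relative of Aldh1a1, was the member that fell (log2 fold change -2.19, adjusted p = 0.0254), a call lost without any juvenile library or Adult-NCD replicates 1 or 4 (adjusted p up to 0.0812).

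Glycolysis and glycogen had 3 of 36 genes higher and 3 lower (4 and 4 without Adult-NCD replicate 3), with a median log2 fold change of 0.01, as over all genes tested. Besides Pfkfb3, the higher genes were Gbe1 (chr16:70313949-70569716), the glycogen branching enzyme (log2 fold change 0.64, adjusted p = 0.00795), and Phka1, a subunit of phosphorylase kinase (0.53, adjusted p = 0.0130). The lower genes were the glycogen-targeting subunit Ppp1r3c (log2 fold change -1.11, adjusted p = 0.0161), the enolase Eno1 (-0.45, adjusted p = 0.0137) and the muscle phosphoglycerate mutase Pgam2 (-0.37, adjusted p = 0.0483). Calls were lost without Juvenile-NCD replicates 2 or 4 for Phka1 (adjusted p up to 0.0611), without Juvenile-NCD replicate 2 or Adult-NCD replicate 2 for Ppp1r3c and Eno1 (up to 0.0588 and 0.0600), without Juvenile-NCD replicates 1, 2 or 3 for Pfkfb3 (up to 0.0681), and without any library but Adult-NCD replicate 3 for Pgam2 (up to 0.158). Of the 75-base windows of Eno1, 23.0% also occur in Eno1b. The reference gene of the study's RT-qPCR, Gapdh, had 4098 ± 214 and 3617 ± 1017 CPM (adjusted p = 0.609), with Adult-NCD replicate 3 the lowest.

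Nuclear genes of oxidative phosphorylation had 0 of 56 members called by edgeR, 1 higher by DESeq2, 0 by limma and 0 at the study's thresholds, and the median log2 fold change was 0.09 (0.03 without Adult-NCD replicate 3). Of the 13 mitochondrially encoded genes, 0 were called by edgeR or DESeq2, 1 higher by limma, 0 at the study's thresholds and 1 higher without Adult-NCD replicate 3. Their median moved from -0.20 to 0.15 when that library was left out, so their direction rested on it. The most abundant by CPM, mt-Co1, ranged from 18201 to 48526 CPM in juvenile libraries and from 3758 to 46466 in adult ones.

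Fatty acid uptake and oxidation had 7 of 47 genes lower and 2 higher (8 and 2 without Adult-NCD replicate 3), with a median log2 fold change of 0.06, or -0.03 without that library. Ucp3 (chr7:100472990-100486432), the uncoupling protein of muscle that responds to fatty acid supply, had 362, 221, 156 and 247 CPM in Juvenile-NCD replicates 1 to 4 and 52.5, 42.6, 70.7 and 70.2 CPM in Adult-NCD replicates 1 to 4. All adult libraries were below all juvenile ones (log2 fold change -2.07, SE 0.25, adjusted p = 0.00144). Pdk4 (chr6:5483351-5496309), the kinase that switches off pyruvate dehydrogenase, fell from 619 ± 270.4 to 182 ± 62.9 CPM (log2 fold change -1.76, adjusted p = 0.00999). It opposes Pdp1, which rose. Plin4 (chr17:56100591-56109803), a coat protein of lipid droplets, had a log2 fold change of -0.79 (adjusted p = 0.00144), Mgll (chr6:88724412-88828360), monoacylglycerol lipase, -0.72 (adjusted p = 0.00860), and the acyl-CoA synthetase Acsl1 -0.47 (adjusted p = 0.0171, or 0.0618 without Juvenile-NCD replicate 2). The genes that rose were Echs1 and Ech1, enzymes of mitochondrial beta-oxidation (log2 fold changes 0.71 and 0.35, adjusted p = 0.0229 and 0.0330). Echs1 lost its call without Juvenile-NCD replicates 2, 3 or 4 or Adult-NCD replicate 2 (adjusted p up to 0.0808) and Ech1 without any library but Adult-NCD replicate 3 (up to 0.118), and 4 members were lower without Juvenile-NCD replicate 2.

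Lpl, lipoprotein lipase, had 745 ± 139 CPM in Juvenile-NCD and 603 ± 85.4 in Adult-NCD and did not pass the test (log2 fold change -0.31, adjusted p = 0.256), while 2 of the 7 genes tested of the lipase and its regulators fell (2 also without Adult-NCD replicate 3), the endothelial anchor Gpihbp1 (-0.82, adjusted p = 0.0487) and the convertase Pcsk5 (-0.95, adjusted p = 0.0382). Gpihbp1 lost its call without any juvenile library or Adult-NCD replicates 1 or 2 (adjusted p up to 0.153) and Pcsk5 without any library but Adult-NCD replicate 3 (up to 0.118).

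The interferon genes Irf7 and Isg15 varied among the juvenile mice. Of 32 genes of antigen presentation and interferon response, 2 fell and 0 rose (3 and 0 without Adult-NCD replicate 3), where 4% of all genes tested fell. The list median was -0.56 in log2 fold change, and DESeq2 called 5 lower, limma 0 and a fit without a filter on low counts 10. At the study's thresholds 11 were lower, all among the 19 interferon-induced genes, of which 18 had a negative log2 fold change (median -1.15). Irf7 (chr7:141262706-141266481), a regulator of interferon genes, had 46.6, 53.9, 6.95 and 10.4 CPM in Juvenile-NCD replicates 1 to 4 and 5.25, 5.71, 5.61 and 6.88 CPM in Adult-NCD replicates 1 to 4. Juvenile-NCD replicates 1 and 2 were high and replicates 3 and 4 were near the adult level (log2 fold change -2.33, SE 0.57, adjusted p = 0.0405). Isg15 (chr4:156199424-156200818), a ubiquitin-like protein induced by interferon, had 9.10, 16.7, 3.27 and 3.77 CPM in the juvenile and 1.52, 1.44, 2.98 and 0.954 CPM in the adult libraries, with the same juvenile libraries high (log2 fold change -2.26, adjusted p = 0.0346). Both genes lost their call without Juvenile-NCD replicates 1 or 2 or Adult-NCD replicates 1, 2 or 4, with adjusted p up to 0.124 for Irf7 and 0.106 for Isg15, and 6 members were lower without Juvenile-NCD replicate 3.

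Among 15 genes of growing vessels, 2 fell and 0 rose (3 and 0 without Adult-NCD replicate 3), with a median log2 fold change of -0.00, or -0.29 without that library. The genes that fell were Col4a1 (chr8:11198423-11312826), the basement membrane collagen (log2 fold change -0.998, adjusted p = 0.0130), and Apln, the peptide apelin of sprouting tip cells (-1.15, adjusted p = 0.0429). The 15 endothelial markers had 1 member lower, Ptprb, a receptor phosphatase and the most abundant of them (log2 fold change -0.51, adjusted p = 0.0141, or 0.0546 without Adult-NCD replicate 2), with 3 lower without Adult-NCD replicate 3 and 2 without Adult-NCD replicate 4. That count with all 8 libraries is close to the 4% of all genes tested that were called lower. Endothelial sums were 2142, 2014, 1972 and 2005 CPM in the juvenile and 1729, 1721, 1771 and 1876 CPM in the adult libraries, without overlap. Col4a1 lost its call without Juvenile-NCD replicate 2 or Adult-NCD replicate 2 (adjusted p up to 0.0521), and Apln without any library but Adult-NCD replicate 3 (up to 0.137). The part of endothelial cells in the decreases of Col4a1 and Gpihbp1 was not tested.

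Markers of adipocytes, pericytes, lymphocytes and erythrocytes had no member called by edgeR. Adipocyte markers summed to 303.9 to 481 CPM over the 8 libraries with Fabp4 the most abundant, and 0 of 10 were called by edgeR, DESeq2 or limma or at the study's thresholds. Smooth muscle and pericyte markers, led by Rgs5, summed to 1476 to 2009 CPM, with 0 of 10 called by edgeR, DESeq2 or limma or at the study's thresholds. Of 19 lymphocyte markers 2 passed the filter, Ighm being the most abundant, with sums of 16.3 to 42.6 CPM, and 0 were called by edgeR, DESeq2 or limma and 1 was lower at the study's thresholds. Erythrocyte markers, led by Hbb-bs, summed to 147.5 to 390.3 CPM, with 0 of 5 called by edgeR, DESeq2 or limma or at the study's thresholds. No marker of these lists was at 0 in all 8 libraries. Muscle fibre markers had 0 of 14 called by edgeR, 2 lower by DESeq2, 3 lower by limma, 0 at the study's thresholds and 2 lower without Adult-NCD replicate 3.

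**Figure D5:**
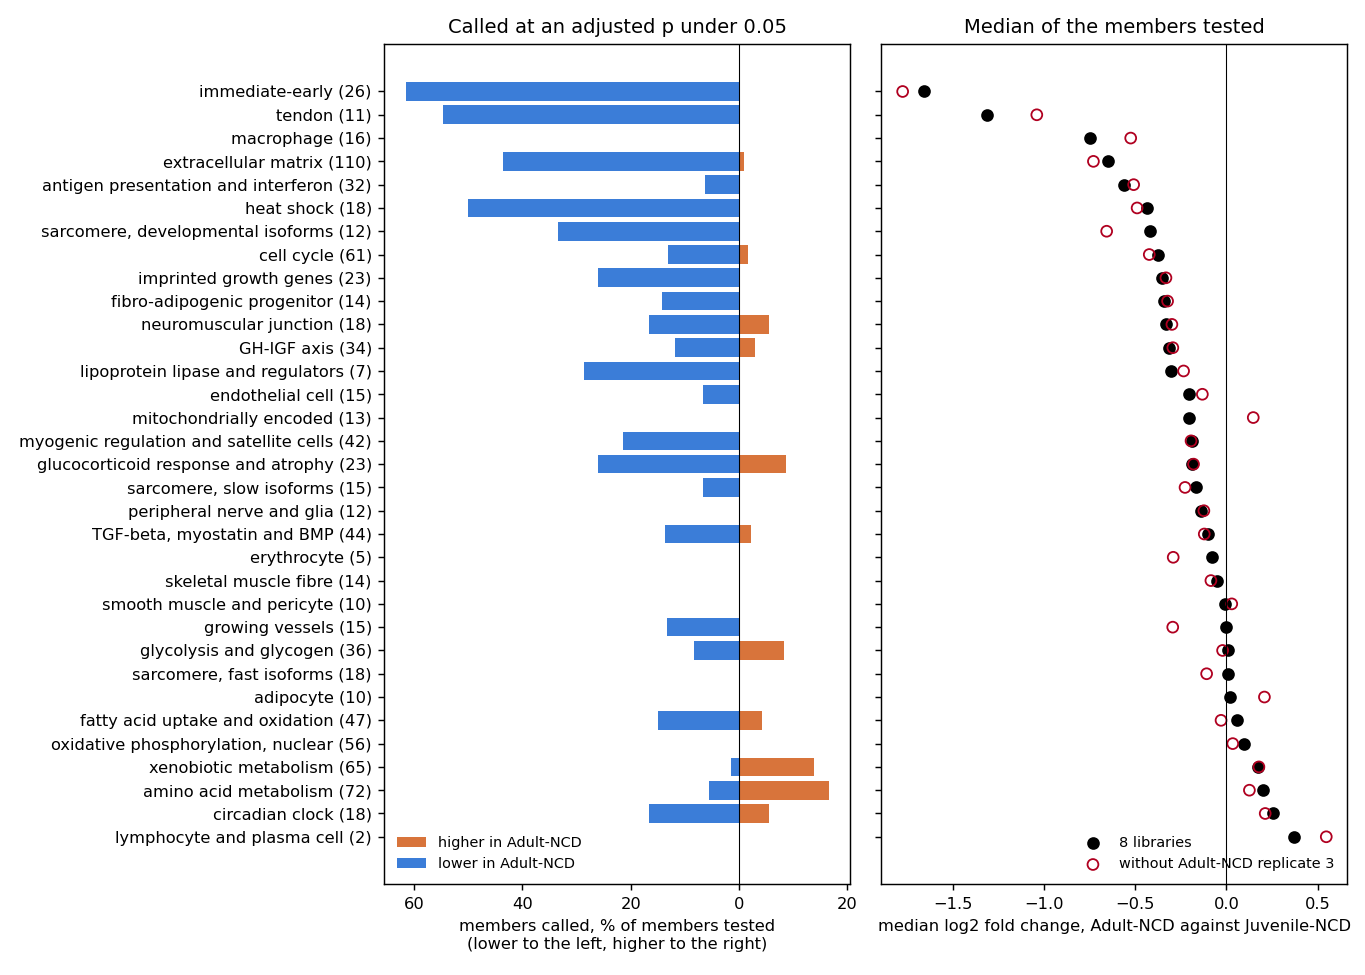
Left, the percentage of each list's tested members (number in brackets) called lower (blue, to the left) or higher (orange, to the right) in Adult-NCD. Right, the median log2 fold change of the tested members in all 8 libraries (black) and without Adult-NCD replicate 3 (open red), where the immediate-early list is lowest at -1.66 and -1.78.

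Some calls named above also changed with the tool or the genes and libraries fitted. The fit of all 16 libraries did not call Thbs4, Col1a1, Lum, Ndn, Kif11, Rbl2, Ache, Fbxo32, Aldh18a1, Azin1, Ech1, Pcsk5 or Apln, and limma did not call Fosb, Rassf10, Isg15 or Irf7. With DESeq2's size factors in place of TMM, Ache, Azin1, Pgam2 and Gpihbp1 lost their call, and without a filter on low counts Ndn, Rbl2, Ache, Rapsn, Aldh18a1, Azin1, Pgam2 and Ech1 did. Counts of members moved as well, but these fits also called more genes in general. Over all genes, edgeR called 570 lower and 263 higher. DESeq2 called 876 and 587 (930 and 657 without independent filtering) and limma 922 and 558. List sizes below are the genes tested by edgeR. DESeq2 and limma called 14 and 12 of 42 genes of myogenic regulation lower, and 8 and 9 of 34 of the growth hormone and insulin-like growth factor axis. Lower were also 10 and 10 of 23 of the glucocorticoid and atrophy list, 4 and 6 of 18 of the nerve-muscle synapse and 5 and 4 of 14 fibro-adipogenic markers. The counts were 3 and 4 of 15 endothelial markers and 4 and 3 of 15 genes of growing vessels. Among increases, DESeq2 and limma called 3 and 4 of 18 clock genes, 4 and 4 of 47 of fatty acid uptake and oxidation and 5 and 4 of 36 of glycolysis and glycogen. The fit of all 16 libraries, with 735 genes lower and 589 higher, called 3 of 11 tendon markers lower and 20 of 72 genes of amino acid metabolism higher.

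The same age difference was measured on HFD in other mice. Of 14043 genes tested there, 1085 were higher (7.73%) and 1455 lower (10.4%) in adults. Of the 263 genes higher on NCD, 260 were tested on HFD, 244 had the same direction, 150 were called higher there and 1, E330009J07Rik, was called lower (log2 fold change -0.71 on HFD, against 0.83 on NCD, where its call was lost without Juvenile-NCD replicates 2, 3 or 4 or Adult-NCD replicates 1 or 2, adjusted p up to 0.113). Of the 570 lower, 558 were tested, 528 had the same direction and 342 were called lower. The 150 shared genes are 57.0% of the 263 and 13.8% of the 1085, and the 342 are 60.0% of the 570 and 23.5% of the 1455.

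Matrix genes fell on both diets, with 90 of 110 called lower on HFD and a median log2 fold change of -1.44 there. Tendon markers had a median of -2.39 on HFD with 7 of 11 lower, fibro-adipogenic markers -1.56 with 10 of 14 lower, and macrophage markers -1.81 with 13 of 14 lower. Most genes of each of these lists were thus lower on HFD, and the part of these cells was not tested. Other lists with members lower on NCD were mixed. Imprinted growth genes had a median of -0.50 on HFD (8 of 22 lower, 1 higher) and cell cycle genes -0.33 (10 of 56 lower, 1 higher). Heat shock genes had -0.13 (2 of 18 lower, 1 higher) and glucocorticoid and atrophy genes 0.13 (4 of 22 lower, 5 higher). Interferon-induced genes had 0.38 (0 of 19 lower, 2 higher) and myogenic transcription factors 0.14 (1 of 12 lower, 2 higher). Actc1 had a log2 fold change of -4.72 on HFD (adjusted p = 1.29e-05) and Rasd2 2.07 (adjusted p = 1.29e-05), and neither passed the interaction test (adjusted p = 0.785 and 0.774). Xirp1 and Myog, called on NCD, had -0.34 and -0.18 on HFD, where neither was called (adjusted p = 0.477 and 0.608), but their difference between diets did not pass either (interaction adjusted p = 0.146 and 0.148).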

How the data were processed

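The deposited whole-number counts were used, which the authors made with featureCounts 2.0.3 from STAR 2.7.11a alignments of reads trimmed by cutadapt. Of 55401 genes in the files, 54349 matched Gencode M21 by identifier and version and 792 by identifier alone, which gave names, positions on GRCm38 and exon lengths. Genes were kept by edgeR's filterByExpr (minimum count 10), scaled by TMM and compared with edgeR 4.0.16 2-sided quasi-likelihood tests, and p was adjusted by Benjamini-Hochberg across every gene tested. DESeq2 1.42.0 and limma 3.58.1 were alternatives. Principal components used log2 CPM with a prior count of 2.

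The members and lists were chosen with earlier results of these data known, and lists share genes. Named genes are the 10 with the smallest p in each direction among those called without overlap, the 5 with the largest change in each direction with at least 1 CPM in every library of the higher group, up to 6 called members of each list (or the 2 with the smallest p), the most abundant gene of each other cell type, the expressed RT-qPCR genes and the 5 with the smallest interaction p, without clone names (except in the last) or pseudogenes. Some that qualify are counted but not named. Col1a1, Mmp11, Rbl2, Fbxo32, Aldh1a7, Glul, Sat1, Aldh18a1, Azin1, Echs1, Ech1, Lpl, Ier5 and Slc25a25 were chosen after their values were seen.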

Additional observations from a re-analysis of the deposited data

Results flagged for a closer look

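Among 350 groups of 4 values, 12 had 1 library apart from the other 3 by Dixon's test (the gap to the nearest value over the range), fewer than the 1 in 20 groups that chance flags. Adult-NCD replicate 3 was the library apart for Rian (6.39 CPM), H19 (119 CPM), Col4a1 (470.4 CPM), the summed cell cycle list (547 CPM) and the summed glucocorticoid and atrophy list (4474 CPM). Adult-NCD replicate 4 stood apart for Actc1 (95.2 CPM), Atf3 (12.4 CPM) and Hspa1a (15.5 CPM), and Adult-NCD replicate 2 for Ache (44.5 CPM). In the juvenile group, replicate 2 was apart for Meg3 (42.2 CPM) and replicate 3 for Foxo1 (78.3 CPM) and Slc25a25 (275 CPM). The difference between ages differed between diets, by the interaction test, for Per1 (log2 -1.14) and Jun (log2 -1.80). Neither was called with a replicate block.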

How the results depend on the processing

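The direction of all 122 called genes named here held under every alternative, 69 of them were called under all alternatives and 71 in every fit that left out 1 library. Where calls and counts moved, the cause was not tested. DESeq2 called 587 genes higher and 876 lower, or 657 and 930 without independent filtering, limma 558 and 922, and a fit of all 16 libraries 589 higher. Leaving out 1 library gave 65 to 403 genes higher and 232 to 747 lower, and at the study's thresholds 524 to 906 and 926 to 1191. Without a filter on low counts, 997 genes were higher at those thresholds. The interaction called 93 genes by DESeq2, 281 without the filter and 0 to 83 when 1 library was left out. The difference in mitochondrial share ranged from -3.64 to 0.37 percentage points and turned positive, to 0.37, without Adult-NCD replicate 3. Among genes not called, log2 fold changes turned sign for Myh1 without Adult-NCD replicates 1 or 4 (range on leaving out 1 library -0.128 to 0.0244), for Fabp4 by limma (-0.000435) and without Adult-NCD replicate 3 (-0.0518 to 0.233), and for Hbb-bs without Juvenile-NCD replicate 1 or Adult-NCD replicate 2 (-0.316 to 0.159).

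The groups share replicate numbers, and the labels do not say what a number stands for. Correlations of deviations from the group means were 0.0578 to 0.301 between libraries of the same number and -0.213 to 0.1199 between others, and 6 of 8 libraries were closest to their own number. With a replicate block, 389 genes were higher and 724 lower, including 232 of the 263 and 535 of the 570, and the interaction called 0. Of the genes named here, Rbl2, Ache, Etv4 and Pgam2 lost their call with the block.

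Changes below the spread among 4 mice per group, 1 of them far from the rest, are not resolved. Genes near 1 CPM were measured with few reads, and the strand and multiple-alignment settings of the counts are not stated.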
